A study of Mus musculus with 6 samples.

Results

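Mouse embryonic stem cells lacking THAP1 were compared with wild-type cells by RNA sequencing, gene by gene, across the whole expressed transcriptome. The comparison used the 2 null (KO) and 2 wild-type (WT) libraries of 6 in the series. The remaining 2 carry a missense allele, C54Y, on both copies. They entered the filter on low values and the estimate of the spread between libraries. In fits that left out a WT or KO library, they also entered the estimate of the difference between replicate numbers. The genotype left with 1 library then adds no spread of its own to the p-values of that fit. WT, KO and C54Y cells all came from C57Bl/6 blastocysts and were kept on gelatin with irradiated mouse embryonic fibroblasts, in a medium holding LIF (1000 units per ml) and 15% serum. The KO allele lacks exon 2 of Thap1. The libraries of each genotype are numbered replicate 1 and replicate 2. The labels do not say whether they came from separate clones or cultures, so p-values measure only the spread between these libraries, which may be technical.

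THAP1 is a transcription factor with a zinc-coordinating THAP domain at its amino terminus, which reads DNA sites built around a GGCA core, and with a coiled coil through which it forms dimers. It binds promoters together with the cofactor HCFC1, and mutations in the human gene cause the movement disorder DYT6 dystonia. Embryonic stem cells in serum and LIF hover between a naive state, marked by factors such as Zfp42, Esrrb and Klf4, and a formative state that precedes lineage choice, and a minority drift toward endoderm, trophectoderm or a two-cell-like state.

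The deposited values are normalized counts, each a read count scaled by the size factor of its library, and are not corrected for gene length. The 4 libraries held 32356572 to 41779273 reads over 17061 to 18229 genes. Ribosomal RNA precursor (Rn45s) took 0.476% and 2.05% of reads in WT replicates 1 and 2 and 0.600% and 1.5% in KO. Embryonic stem cell markers summed to 163546 and 347072 normalized counts in WT and to 301870 and 496970 in KO, with all 8 present in each library. Both replicate 2 libraries thus differed from replicate 1 in the same way in either genotype, and each KO library is set against the WT library of its own number throughout.

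Thap1 stood at 433 and 701 normalized counts in WT replicates 1 and 2, and at 1975 and 1687 in KO. Both KO libraries were above both WT libraries (log2 difference 1.72 ± 0.22 SE, adjusted p = 0.00179, limma with Benjamini-Hochberg adjustment over all tested genes, as for every adjusted p here). Reads were counted over the whole gene, so this value does not test whether exon 2 was lost.

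Of 19713 genes, 15287 reached a normalized count of 10 in at least 2 libraries and were tested on log2 of the normalized count plus 2. At an adjusted p under 0.05, 1361 genes rose in KO (8.9% of those tested) and 1133 fell (7.41%), 16.3% in all. Falls were more often 2-fold or more, and rises more numerous at 4-fold and beyond. Among called genes, 763 rose and 820 fell at least 2-fold, 278 rose and 202 fell at least 4-fold, 86 rose and 29 fell at least 8-fold, and 20 rose and 2 fell at least 16-fold. For rises from WT counts near 0, and for falls to KO counts near 0, the fold depends on the added 2. With TMM factors in place of the deposited size factors, the median of all genes moved from 0.03 to -0.06 and the share of calls that were rises from 54.6% to 44.8%. The calls rest on matching libraries by replicate number: with no block, 0 passed in limma (1049 had an unadjusted p below 0.05), 0 in edgeR and 235 in DESeq2.

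The replicate pairs had similar median sizes of change, while single genes differed between them. The median absolute log2 difference over all tested genes was 0.388 between the replicate 1 libraries and 0.367 between the replicate 2 libraries, and over called genes it was 1.28 and 1.11. Across all tested genes, which are not independent replicates, the pairs' differences had a Pearson r of 0.65 and a Spearman rho of 0.54, and 65.6% had the same sign in both. In 973 of the called rises and 871 of the called falls both KO libraries lay outside the WT range, and over all tested genes 13.6% lay above it and 13.6% below it. Only 27 tested genes changed more than 2-fold in opposite directions in the pairs. None of those had a mean above 51.8 normalized counts over the 4 libraries. A fit without 1 library leaves its genotype with 1 library, whose spread does not enter the p-values of that fit. With any 1 of the 6 libraries left out in turn, 1040 genes were called every time, 580 up and 460 down.

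**Figure D1:**
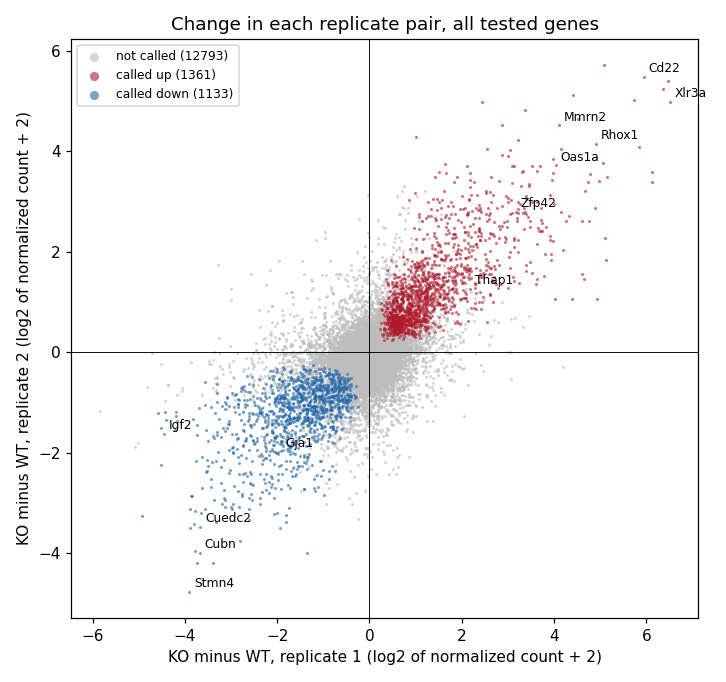
Each point is 1 of 15287 tested genes, with the KO minus WT difference of the replicate 1 libraries on the x axis and of the replicate 2 libraries on the y axis, both in log2 of the normalized count plus 2. Called genes lie in the quadrants where the pairs have the same sign, a choice that the test itself makes, and 27 genes lie beyond 2-fold in opposite quadrants.

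The balance of rises and falls shifted with the normalized count. Of genes with a mean of 100 to 300 over the 4 libraries, 10.7% rose and 13.9% fell. Of the 634 genes with a mean of 10000 or more, 95 rose (15.0%) and 16 fell (2.52%). X-linked genes made up 24 of these highly counted genes. Among the autosomal ones, 13.5% rose and 2.63% fell, against 7.71% and 7.80% of autosomal genes with lower means. The median log2 difference of the 634 genes was only 0.15, and TMM factors moved the median of all genes from 0.03 to -0.06. The balance by normalized count was not examined with TMM factors. Long noncoding RNA genes differed in balance from protein-coding genes, with 7.71% of 584 up and 2.74% down against 9.0% and 7.73% of 14394.

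Cuedc2, whose CUE domain protein binds ubiquitin, had the smallest adjusted p of all genes. It stood at 3001 and 7098 normalized counts in WT and at 235 and 639 in KO (log2 difference -3.57 ± 0.17, adjusted p = 8.92e-05). The WT libraries differed more than 2-fold between themselves, and so did the KO libraries, yet each KO library was far below its WT partner. Dph6, an enzyme of diphthamide synthesis on translation elongation factor 2, fell from 928 and 456 to 129 and 52.2 (-2.96 ± 0.26, adjusted p = 0.000446). Usp31, a deubiquitinating enzyme, fell from 1915 and 562 to 474 and 59.8 (-2.60 ± 0.29, adjusted p = 0.00105). The uncharacterised gene BC052040 fell from 1162 and 1503 to 270 and 383 (-2.03 ± 0.18, adjusted p = 0.000447). Only for Usp31 did the values leave little room between groups, with 474 in KO replicate 1 against 562 in WT replicate 2. The promoters of these 4 genes are shown because each holds the THAP1-type motif GTANGGGCA, a motif and a set of genes chosen after the values were seen. Cubn and Gja1 are shown as the next genes after Cuedc2 by p that fell and have a promoter entry. The sequences are the 250 bases before the RefSeq start in GRCm38.p6, 5′ to 3′ on the strand of the gene, with the motif or its reverse complement in capitals.
Cuedc2, chr19:46338661-46338910, strand -: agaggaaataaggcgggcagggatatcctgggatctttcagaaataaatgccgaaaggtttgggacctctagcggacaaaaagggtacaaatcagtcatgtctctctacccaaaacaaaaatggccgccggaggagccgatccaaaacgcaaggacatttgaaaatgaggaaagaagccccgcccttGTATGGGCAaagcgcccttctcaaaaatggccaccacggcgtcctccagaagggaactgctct
Dph6, chr2:114654965-114655214, strand -: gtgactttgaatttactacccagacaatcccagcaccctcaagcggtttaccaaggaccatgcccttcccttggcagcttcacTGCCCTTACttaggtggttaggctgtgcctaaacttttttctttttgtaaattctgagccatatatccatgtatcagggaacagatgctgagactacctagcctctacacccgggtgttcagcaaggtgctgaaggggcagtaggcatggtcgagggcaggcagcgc
Usp31, chr7:121707443-121707692, strand -: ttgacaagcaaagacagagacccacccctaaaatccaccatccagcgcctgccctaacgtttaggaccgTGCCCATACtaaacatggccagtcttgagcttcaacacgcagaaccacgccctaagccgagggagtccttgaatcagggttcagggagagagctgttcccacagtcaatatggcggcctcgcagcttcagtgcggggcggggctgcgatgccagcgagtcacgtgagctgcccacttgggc
BC052040, chr2:115581466-115581715, strand +: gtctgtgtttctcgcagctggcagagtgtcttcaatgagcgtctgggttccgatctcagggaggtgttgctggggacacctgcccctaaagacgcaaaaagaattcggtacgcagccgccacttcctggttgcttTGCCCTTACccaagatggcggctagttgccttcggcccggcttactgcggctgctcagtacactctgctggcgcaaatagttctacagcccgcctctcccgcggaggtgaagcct
Cubn, chr2:13491877-13492126, strand -: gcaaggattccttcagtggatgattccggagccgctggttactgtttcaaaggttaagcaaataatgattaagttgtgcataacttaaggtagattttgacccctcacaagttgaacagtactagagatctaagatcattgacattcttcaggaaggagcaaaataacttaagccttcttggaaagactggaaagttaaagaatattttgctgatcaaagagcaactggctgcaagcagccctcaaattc
Gja1, chr10:56377050-56377299, strand +: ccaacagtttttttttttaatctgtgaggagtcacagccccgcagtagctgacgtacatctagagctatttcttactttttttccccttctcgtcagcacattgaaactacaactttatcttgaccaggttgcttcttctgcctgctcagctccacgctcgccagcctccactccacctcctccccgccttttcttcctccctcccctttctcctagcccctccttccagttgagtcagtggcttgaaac
In Cuedc2 the motif begins 63 bases before the start and reads along the gene, in Dph6, Usp31 and BC052040 it reads against the gene, and the windows of Cubn and Gja1 hold no match. These matches are letters in a window and do not show binding.

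Promoter windows from 250 bases before to 50 after the start were available for 11950 tested genes. The fixed motif, TNNGGCA on either strand, was in 41.9% of all these promoters, in 47.6% of those of genes that rose and in 40.5% of those of genes that fell. The 8-letter site TNNGGGCA, which contains GGCA but not TNNGGCA in register, was in 16.5% of all promoters, in 17.6% for rises and in 20.9% for falls. The 9-letter GTANGGGCA, which contains TNNGGGCA, was in 83 promoters (0.695%), in 10 of those that rose (0.934%) and in 13 of those that fell (1.54%). Among the 100 falls with the smallest p it was in 6, and among the 100 such rises in 0. Both longer motifs were chosen after the data were seen, and the shares are a description without a test.

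The largest falls included Stmn4 and Ehd3. Stmn4, a neuronal microtubule regulator, fell from 197 and 190 normalized counts in WT to 11.3 and 5.09 in KO (-4.33 ± 0.34, adjusted p = 0.000291). Ehd3, which acts in endosomal recycling, fell from 191 and 260 to 4.34 and 25.5 (-4.09 ± 0.44). For both genes every KO library lay far below the lower WT library. Spon1, a secreted matrix protein first known from the floor plate, fell from 277 and 202 to 21.7 and 21.6 (-3.33 ± 0.31). Enpp2, the secreted enzyme autotaxin that makes lysophosphatidic acid, fell from 625 and 239 to 55.6 and 35.6 (-3.06 ± 0.27). Prtg, an immunoglobulin-superfamily receptor of the early embryo, fell from 5481 and 1055 to 442 and 160 (-3.16 ± 0.28). The WT libraries of Prtg differed widely from each other, and both KO libraries were below the lower of them. Fndc3c1, an X-linked gene, fell from 1744 and 161 to 119 and 20.4 (-3.36 ± 0.28), opposite to most called X-linked genes. All the genes in this paragraph were called with any 1 library left out.

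The largest rises led with genes that WT cells barely expressed. In 5 genes, Xlr5a, Xlr3c, Xlr3b, Xlr5b and Ceacam20, both WT libraries were under 10 normalized counts and both KO libraries over 100, and 0 genes showed the reverse. With a limit of 30 in place of 100 the counts were 27 genes and 15 for the reverse. Ceacam20, a cell adhesion gene of the carcinoembryonic antigen family, went from 3.73 and 1.29 to 304 and 104, and Cd22, a sialic-acid-binding lectin of B cells, from 6.72 and 0 to 534 and 87.8. With so few reads in WT, the log2 differences of these genes depend on the added 2 and are not bounds. Mmrn2, an endothelial matrix protein, rose from 30.6 and 27.0 to 558 and 663 (4.31 ± 0.24, adjusted p = 0.000125). Aldh3a1, an aldehyde dehydrogenase, rose from 7.47 and 18 to 166 and 331 (4.10 ± 0.32, adjusted p = 0.000251). Its KO libraries were far above both WT libraries, as were those of Mmrn2. Ccnb1ip1, a meiotic crossover factor also known as HEI10, rose from 26.9 and 42.5 to 731 and 407 (3.93 ± 0.34). Pnma5, an X-linked gene derived from a retrotransposon gag, rose from 122 and 206 to 4109 and 2833 (4.41 ± 0.29, adjusted p = 0.000195). Gm364, another X-linked gene, rose from 50.8 and 25.7 to 1879 and 311 (4.32 ± 0.43), a much larger step in replicate 1 than in replicate 2. All these calls held with any 1 library left out, but the filter on low values was not applied again. Ceacam20 and Cd22 were under 10 in both WT libraries, so they entered the test through other libraries. Their calls are therefore a description and no separate evidence.

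**Figure D2:**
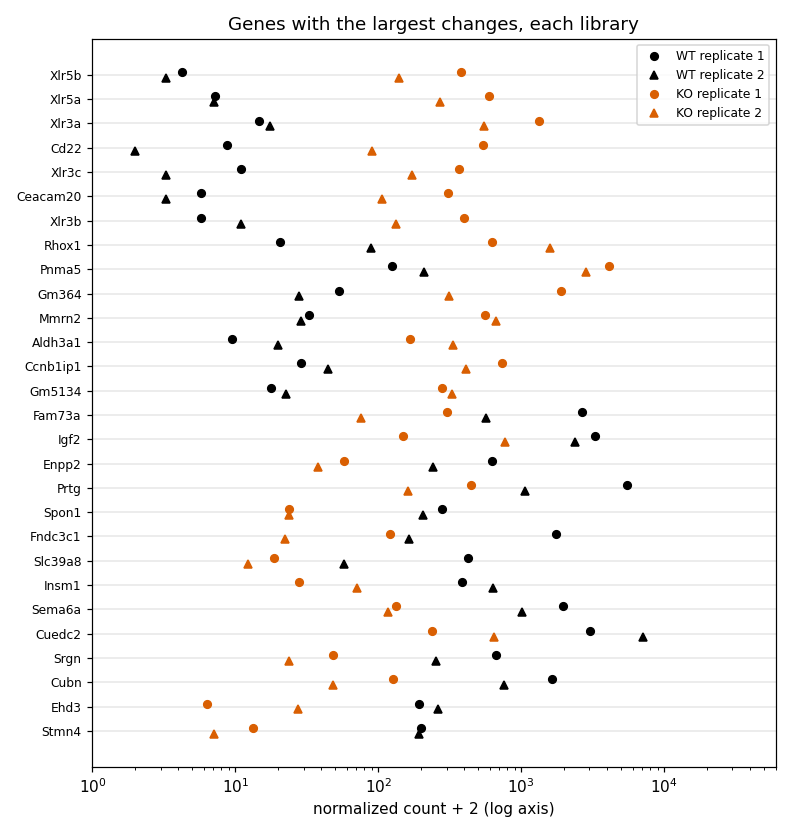
Normalized count plus 2 (log axis) of the 14 genes with the largest rises and the 14 with the largest falls, chosen for a call, a mean of at least 100 and groups that do not overlap. Black symbols are WT and orange symbols KO, circles replicate 1 and triangles replicate 2, and in every gene the orange symbols lie on 1 side of the black ones because the rule required it.

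X-linked genes differed from autosomal ones along the whole chromosome. Of 566 tested X-linked genes 189 rose and 19 fell, with a median of 0.59 (0.72 in replicate 1 and 0.41 in replicate 2), against a median of 0.02 for 14646 autosomal genes. Cut into consecutive windows of 50 genes with a mean of at least 100, the X chromosome gave 8 windows with medians from 0.47 to 0.77. All 8 were above 0 in both pairs. The 209 autosomal windows spanned -0.34 to 0.32, with 84 above 0 in both pairs and 20 below 0 in both. These 2 counts depend on the deposited size factors: the median autosomal window was 0.05, and TMM factors shifted genes by a median of -0.09. By pair, the X windows lay at 0.67 to 0.85 in replicate 1, above the highest autosomal window (0.38), and at 0.18 to 0.66 in replicate 2, overlapping the autosomal range, which reached 0.31. All X-linked genes, tested or not, took 3.18% and 2.50% of reads in WT, and 4.73% and 3.52% in KO. Xist, the RNA that coats an inactive X, stood at 117 and 12.9 normalized counts in WT and at 341 and 17.8 in KO, and Y-linked genes at 9.56 or less in every library. These values do not show how many X chromosomes each line carried, and a difference in X chromosomes between the lines cannot be told apart from the genotype here. Chromosome 2 gave the lowest autosomal windows: 11 of its 17 windows were below 0 in both pairs and 0 were above 0 in both.

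**Figure D3:**
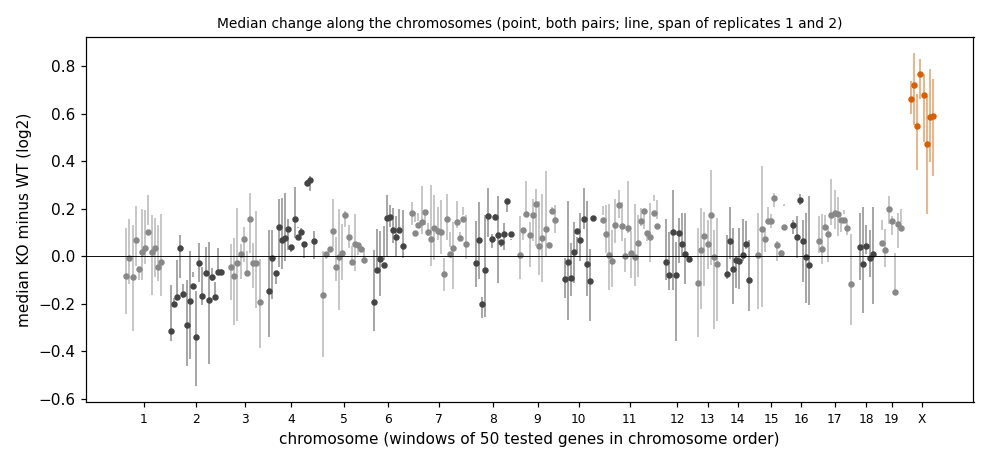
Median KO minus WT difference (log2) in consecutive windows of 50 tested genes with a mean of at least 100, in chromosome order, with the span between the medians of replicates 1 and 2 as a line. The 8 windows of the X chromosome (orange) lie between 0.47 and 0.77, above the highest of 209 autosomal windows at 0.32, and those of chromosome 2 lie mostly below 0.

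Neighbouring genes were in places called together. Ordering 15213 tested genes along the chromosomes gave 13 runs of at least 4 adjacent genes called in the same direction, 11 up and 2 down, with 8 on the X chromosome. The longest, on X, held 10 genes from Ndufb11 to Elk1 with differences of 0.56 to 2.43. It includes Uba1, the ubiquitin-activating enzyme, at 21876 and 36101 in WT and 37346 and 63532 in KO (0.79 ± 0.10, adjusted p = 0.00202). Its largest member was Cfp, the complement factor properdin, at 140 and 125 in WT and 610 and 852 in KO (2.43 ± 0.26, adjusted p = 0.000945). The calls of Rbm10 (adjusted p = 0.0715 without WT replicate 1), Elk1 (0.12 without WT replicate 2), Araf (0.247 without WT replicate 2, 0.0555 without C54Y replicate 2) and Usp11 (0.397 without WT replicate 2, 0.0773 and 0.0914 without C54Y replicates 1 and 2) were lost.

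The second run, of 8 genes, held Pnma5, Pnma3 and members of the Xlr family, lymphoid and germ-cell genes related to the synaptonemal complex protein SYCP3, with differences of 3.48 to 5.94. Xlr3a stood at 12.7 and 15.4 normalized counts in WT and at 1335 and 550 in KO (5.75 ± 0.37, adjusted p = 0.000195). Xlr4b stood at 0.747 and 0 in WT and at 156 and 31.8 in KO. Xlr4b was near zero in WT and Xlr3a low there, both KO libraries were above both WT libraries in each, and Xlr copies are so alike that reads may be split between them. Rhox1, a homeobox gene of the reproductive cluster, rose from 18.7 and 87.5 to 619 and 1591 (4.53 ± 0.31, adjusted p = 0.000195), and Rhox9 from 269 and 724 to 943 and 3715 (2.08 ± 0.20, adjusted p = 0.000644). All 13 tested genes of the Rhox and Xlr list were called up, which is no independent evidence. The list was named from earlier results on these libraries and does not hold every tested member of these families. Of the 13, 8 were under 10 in both WT libraries, and Rhox2a and Rhox4b were too low to test. Rhox10 lost its call without KO replicate 1 (0.168) or WT replicate 2 (0.0727).

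Outside the X chromosome, 6 adjacent kallikrein genes on chromosome 7, which encode secreted serine proteases, were called up. Klk8 rose from 211 and 463 to 467 and 1250 (1.28 ± 0.20, adjusted p = 0.00401). Klk11 rose from 3.73 and 15.4 to 99.9 and 120 (3.48 ± 0.42, adjusted p = 0.00158), and Klk1 from 3.73 and 18 to 50.4 and 120 (2.90 ± 0.38, adjusted p = 0.00204). Each of these 3 had both KO libraries above both WT libraries. Klk10 lost its call without WT replicate 2 (0.11), and Klk13 without WT replicate 1 (0.0872) or 2 (0.187), without C54Y replicate 2 (0.0581) and without KO replicate 2 (0.106). Of the runs chosen for mention after their values were seen, 1 on chromosome 17 fell as a block of antigen-processing genes, Psmb9, Tap1, Psmb8 and Tap2. Tap1, a subunit of the peptide transporter that loads MHC class I, fell from 840 and 624 to 171 and 318 (-1.62 ± 0.32, adjusted p = 0.0105). Psmb8, a catalytic subunit of the immunoproteasome, fell from 91.9 and 106 to 7.82 and 40.7 (-2.29 ± 0.45, adjusted p = 0.0105). Psmb9 lost its call without WT replicate 2 (0.146) and Tap2 without WT replicate 1 (0.0648). Another run, on chromosome 4, held 4 Pramef-like genes, of which Gm13078 went from 2.99 and 0 to 39.1 and 30.5 and Pramef25 from 1.49 and 1.29 to 47.8 and 16.5. Gm13078 and Pramef25 were under 10 in both WT libraries, so they entered the test through other libraries. The filter on low values thus helped to set this run, which is a description.

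Gene lists were set beside the background of 8.9% up and 7.41% down. The lists were chosen with earlier results of these data known. Their counts of called members are therefore a description and no independent evidence. Bulk RNA cannot tell fewer cells of a type from less RNA per cell, so list results describe the culture as a whole.

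Naive pluripotency genes rose as a group, with 14 of 19 tested up, 0 down and a median of 1.16. Zfp42 (Rex1), the zinc finger gene that marks naive cells, stood at 1843 and 974 in WT and 16657 and 6769 in KO (2.98 ± 0.18, adjusted p = 0.000187). Nanog stood at 9895 and 7539 in WT and 26827 and 20998 in KO (1.46 ± 0.17, adjusted p = 0.00144). In both genes each KO library was well above both WT libraries. Klf2 rose from 1744 and 2911 to 3915 and 10409 (1.50 ± 0.17), Klf4 from 3592 and 2379 to 11306 and 5312 (1.41 ± 0.17), Tbx3 from 2255 and 874 to 6033 and 3657 (1.74 ± 0.21) and Tfcp2l1 from 8805 and 4236 to 20892 and 8961 (1.16 ± 0.16). These 4 encode transcription factors of the naive network. Klf5 lost its call without WT replicate 1 (0.0821) or WT replicate 2 (0.0866) and Zfp57 without WT replicate 1 (0.0772), and 1 member fell without KO replicate 2.

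Core pluripotency genes moved less, with 6 of 14 up, 0 down and a median of 0.36, and 1 down with TMM factors or without either KO library. Pou5f1 (Oct4) stood at 32384 and 84886 in WT and at 55256 and 122969 in KO (0.65 ± 0.10, adjusted p = 0.00439), a rise in each pair although the groups overlap. Sox2 stood at 12616 and 11159 in WT and at 19823 and 12842 in KO and was not called (0.43, adjusted p = 0.0742). Fgf4, the growth factor that pushes naive cells toward differentiation, rose from 6133 and 8929 to 12090 and 13453 (0.79 ± 0.15, adjusted p = 0.01). Genes of the LIF receptor and STAT3 pathway itself gave 0 up and 1 down of 14, with a median of 0.05 that became -0.04 with TMM factors. The 1 call, the feedback inhibitor Socs2, was lost without WT replicate 2 (0.273), and without a KO library the list gave 5 up (without KO replicate 1) or 4 up and 4 down (without KO replicate 2). Socs3, a direct STAT3 target, stood at 3665 and 4666 in WT and 5365 and 5883 in KO (0.44, adjusted p = 0.0707).

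Formative genes gave 1 up and 6 down of 15 (median -0.85). Pou3f1 (Oct6), a transcription factor of the formative state, fell from 1269 and 1854 to 398 and 630 (-1.61 ± 0.17, adjusted p = 0.00086), and Fgf5, the growth factor that marks primed cells, from 113 and 78.5 to 15.6 and 21.6 (-2.24 ± 0.34, adjusted p = 0.00388). Foxd3, which acts at the exit from the naive state, went the other way, from 204 and 391 to 709 and 788 (1.40 ± 0.23, adjusted p = 0.00553). The de novo methyltransferase Dnmt3b fell from 12030 and 26674 to 5063 and 10158 (-1.32 ± 0.14, adjusted p = 0.000937). The list of DNA methylation and demethylation enzymes gave 4 up and 3 down of 15, with 1 up without WT replicate 1. Dnmt3a, the partner enzyme of Dnmt3b, fell from 6422 and 17374 to 4074 and 7517 (-0.93 ± 0.16, adjusted p = 0.0063). Tet2, which oxidises methylcytosine, rose from 2579 and 256 to 10013 and 379 (1.26 ± 0.32, adjusted p = 0.028). The Tet2 level differed far more between replicates than between genotypes, and the rise in replicate 2 was small. The up count of the formative list was 2 without WT replicate 2 and 3 without KO replicate 2.

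Endoderm genes fell as a group, with 12 of 16 tested down, 0 up and a median of -2.13. The transcription factor Gata6, which specifies primitive endoderm, fell from 154 and 169 to 35.6 and 24.2 (-2.38 ± 0.34, adjusted p = 0.0029). Sox17 fell from 102 and 136 to 25.2 and 10.2 (-2.72 ± 0.49, adjusted p = 0.00754), and Foxa2 from 38.1 and 42.5 to 2.61 and 3.82 (-3.03 ± 0.47, adjusted p = 0.00443), a fold that depends on the added 2 at such low KO counts. Endocytic receptors of the visceral endoderm fell with them. Cubn (cubilin) went from 1625 and 760 to 125 and 45.8 (-3.84 ± 0.25, adjusted p = 0.000195), and Lrp2 (megalin), its partner, from 9841 and 3106 to 911 and 541 (-2.97 ± 0.25, adjusted p = 0.000374). The receptor kinase gene Pdgfra fell from 272 and 157 to 61.7 and 52.2 (-1.83 ± 0.31). In all 6 of these genes every KO library was below every WT library. Cited1 lost its call without WT replicate 1 (0.447) or KO replicate 1 (0.0948). The up count was 1 without KO replicate 1.

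Markers of other cell types differed too. The 8 primitive endoderm markers summed to 3886 and 2987 normalized counts in WT and to 599 and 495 in KO. The 16 tested genes of the longer endoderm list summed to 59866 and 52451 in WT and to 39546 and 64225 in KO, higher in KO in replicate 2. Most of that sum was the apolipoprotein gene Apoe, at 45499 and 45308 in WT and 37894 and 62840 in KO, which did not pass the test (0.10, adjusted p = 0.704). Trophectoderm markers summed to 27177 and 16659 in WT and to 1083 and 4883 in KO, with 1 of 6 at 0 in WT replicate 2. Of these 6 markers only Cdx2 was called (log2 difference -2.30). Krt8 (-3.42), Krt18 (-3.49) and Gata3 (-0.41) were lower without a call, and Elf5 (1.81) and Eomes (0.22) were higher without a call. The trophectoderm list gave only 4 down and 1 up of 12, with a median of -2.45 in replicate 1 and -0.33 in replicate 2. Hand1, a transcription factor of giant cells and mesoderm, was its only fall that held without each library in turn, from 94.1 and 355 to 18.2 and 125 (-1.87 ± 0.30, adjusted p = 0.00493). The falls of Cdx2 (0.0957 without KO replicate 1), Dlx3 (0.138 without WT replicate 1, 0.107 without KO replicate 1) and Krt7 (0.0845 without WT replicate 1, 0.238 and 0.193 without C54Y replicates 1 and 2) did not, nor did the rise of Tfap2c (0.291 without WT replicate 2). Without KO replicate 2 the list gave 8 down, and the up count ran from 0 without WT replicate 2 to 2 without WT replicate 1 and 3 without KO replicate 1. Markers of fibroblasts, the feeder cell type, summed to 42661 and 60812 in WT and to 35784 and 72919 in KO, lower in KO in replicate 1 and higher in replicate 2, with 1 of 15 at 0 in each library. The fibroblast list gave 0 up and 1 down of 14. That call, Mmp2, was lost without WT replicate 1 (0.0768), and 2 were down without either C54Y library, 4 without WT replicate 2, 8 without KO replicate 2 and 1 up without KO replicate 1. The part of feeder cells in other results was not tested.

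Streak and mesoderm genes gave 2 up and 4 down of 10 tested (median -1.22). Wnt3, the ligand that starts the primitive streak, fell from 255 and 61.8 to 19.98 and 10.2 (-2.97 ± 0.36, adjusted p = 0.00166). Mixl1 lost its call without WT replicate 1 (0.0562) or WT replicate 2 (0.118), Kdr without WT replicate 1 (0.211) and Gsc, which rose, without WT replicate 2 (0.109) or KO replicate 2 (0.0574). Bmp4, the other rise, was lost without either WT or C54Y library (0.0736 to 0.186), so that the up count ran from 0 (without WT replicate 2) to 2. Neural genes gave 2 up and 4 down of 12 (median -0.98). The transcription factor Insm1 fell from 385 and 629 to 26.1 and 68.7 (-3.47 ± 0.36) and Neurod1 from 770 and 194 to 158 and 30.5 (-2.43 ± 0.24, adjusted p = 0.00075), while the adhesion molecule Ncam1 rose from 270 and 328 to 815 and 629 (1.26 ± 0.23, adjusted p = 0.00794). Neural markers summed to 9713 and 7442 in WT and 4781 and 7925 in KO, which overlap.

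Two-cell-like genes, normally expressed in the early cleavage embryo and in a rare fraction of stem cells, gave 7 up and 0 down of 9 tested. In 8 of the 9 both WT libraries were under 10, so that they entered the test through other libraries, and Tdpoz4 and Arg2 were too low to test; the count is a description that the filter on low values helped to set. Dux, the homeobox gene that opens this programme, went from 0 and 2.57 to 14.8 and 35.6 (adjusted p = 0.00533). Zfp352 went from 0 and 0 to 24.3 and 12.7 (adjusted p = 0.00608) and Tmem92 from 0.747 and 9.01 to 73.0 and 127 (adjusted p = 0.00105). Both KO libraries exceeded both WT libraries in each, at low counts throughout. The filter helped to set this too, so these values and their adjusted p are a description and no separate evidence. Zscan4a (0.237 without KO replicate 1, 0.0886 without WT replicate 1) and Zscan4d (0.261 and 0.0753) lost their calls, and Zscan4 copies share reads. Germline and meiotic genes gave 10 up and 2 down of 19 (median 1.01), and 6 up and 1 down without WT replicate 1. The falls numbered 0 without WT replicate 2 and 1 without KO replicate 2. Tex19.1, which restrains retrotransposons, rose from 784 and 2723 to 4135 and 8067 (1.98 ± 0.22, adjusted p = 0.00109). Sycp1, a bar of the synaptonemal complex, rose from 123 and 7.72 to 1150 and 36.9 (2.61 ± 0.35, adjusted p = 0.00237). Dazl, an RNA-binding protein of germ cells, rose from 139 and 24.4 to 864 and 56.0 (1.88 ± 0.42, adjusted p = 0.019). In both Sycp1 and Dazl, KO replicate 2 was below WT replicate 1, while each pair rose.

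**Figure D4:**
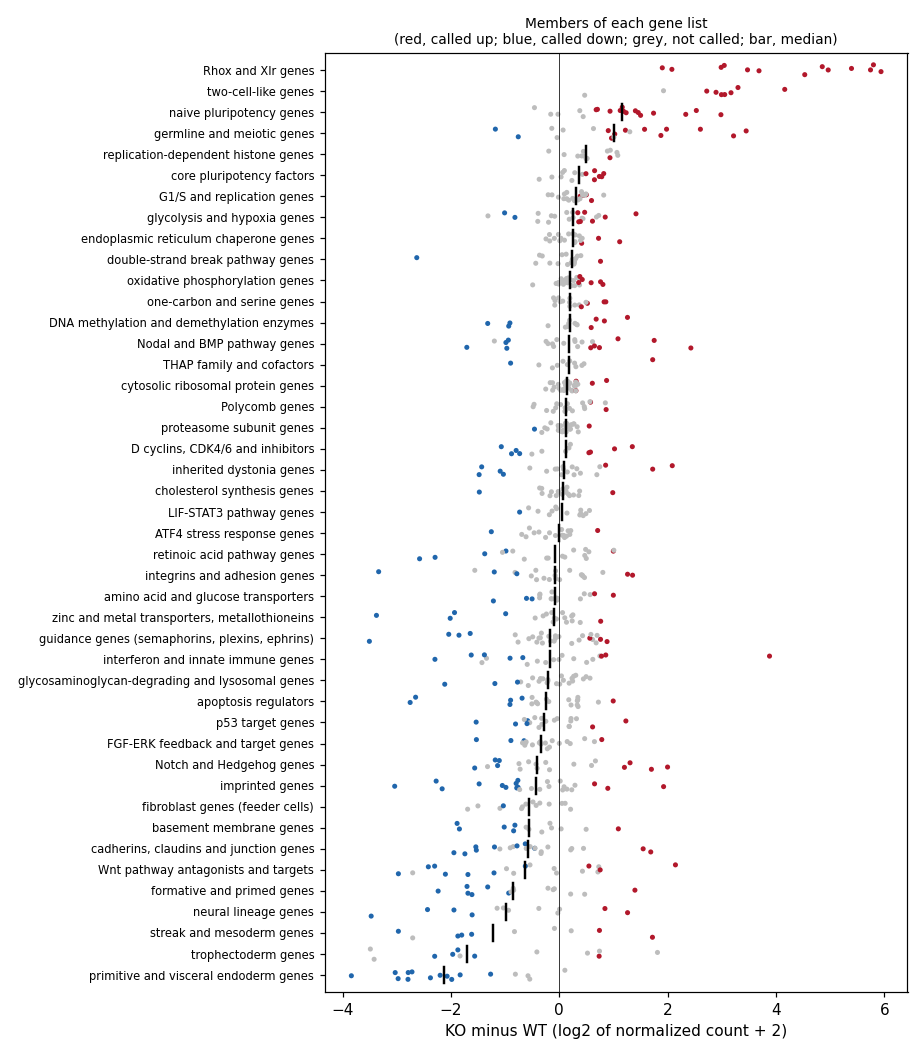
KO minus WT difference (log2 of the normalized count plus 2) of every tested member of 44 gene lists, ordered by the list's median (bar). Rhox and Xlr and two-cell-like genes have no bar because most of their tested members were under 10 in both WT libraries, naive genes lie to the right with a median of 1.16, endoderm and trophectoderm genes to the left with -2.13 and -1.70, and most metabolic and housekeeping lists lie near 0.

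Components of signalling pathways moved in both directions within the same pathway. In the Nodal and BMP list 6 of 22 rose and 4 fell (median 0.18). Inhbb, which encodes the beta-B chain of activin and inhibin, rose from 505 and 449 to 3059 and 2166 (2.43 ± 0.17, adjusted p = 0.000212). Lefty2, a secreted Nodal antagonist and Nodal target, rose from 2958 and 3990 to 11223 and 11951 (1.75 ± 0.15, adjusted p = 0.000374). Both genes had WT libraries close to each other and KO libraries several-fold above them. Skil (SnoN), a repressor of SMAD signalling, fell from 5159 and 1110 to 3178 and 459 (-0.98 ± 0.18, adjusted p = 0.0077). Id1, a BMP target, fell from 1188 and 1762 to 661 and 826 (-0.97 ± 0.17, adjusted p = 0.00657), but 0.0622 without WT replicate 2. The down count was 2 without WT replicate 1.

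FGF and ERK feedback genes gave 1 up and 3 down of 21 (median -0.34). Dusp6, the phosphatase that inactivates ERK and is itself induced by it, fell from 4330 and 4110 to 1524 and 1400 (-1.53 ± 0.16, adjusted p = 0.000945), with both KO libraries well below the WT libraries. The sprouty-family genes Spry2 (0.293) and Spred1 (0.119) lost their falls without WT replicate 2, leaving 1 down, while 12 were down and 3 up without KO replicate 2, and 2 up without WT replicate 2.

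Wnt genes gave 3 up and 7 down of 19 (median -0.63), 11 down without KO replicate 2. Beside Wnt3, the negative regulator Rnf43, a ubiquitin ligase that removes Frizzled receptors, fell from 130 and 65.6 to 26.1 and 15.3 (-2.10 ± 0.32, adjusted p = 0.00391). Dkk1, a secreted antagonist, fell from 33.6 and 69.5 to 8.69 and 6.36 (-2.42 ± 0.47, adjusted p = 0.0103). Notum, which inactivates Wnt ligands by removing their lipid, rose from 156 and 309 to 942 and 1017 (2.15 ± 0.26, adjusted p = 0.00149). The antagonists Notum and Dkk1 thus moved in opposite directions. Axin2, a common Wnt target, fell from 354 and 158 to 127 and 81.5 (-1.20 ± 0.27, adjusted p = 0.0188), but 0.0743 without WT replicate 1.

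Notch and Hedgehog genes gave 4 up and 4 down of 19 (median -0.41), 7 down without KO replicate 2. The Hedgehog activators Gli1, from 1366 and 1051 to 2718 and 2808 (1.20 ± 0.16, adjusted p = 0.00253), and Gli2, from 639 and 804 to 1716 and 1839 (1.31 ± 0.18, adjusted p = 0.00289), rose in each pair. Gli3, the main repressor form of the family, fell from 1083 and 355 to 476 and 165 (-1.14 ± 0.19, adjusted p = 0.00584). Hhip, a membrane antagonist and target of Hedgehog, rose from 29.9 and 5.15 to 98.2 and 34.4 (2.00 ± 0.38, adjusted p = 0.00968). Gli1, Gli2 and Hhip had KO libraries above both WT libraries, whereas the groups overlapped for Gli3. Among Notch genes the receptor Notch4 rose from 288 and 299 to 850 and 1081 (1.70 ± 0.19, adjusted p = 0.00115). The receptor Notch3 fell from 8920 and 4679 to 2869 and 3135 (-1.11 ± 0.26, adjusted p = 0.0213), and the ligands Dll3, from 275 and 548 to 78.2 and 216 (-1.56 ± 0.26), and Jag2, from 2334 and 1458 to 830 and 796 (-1.18 ± 0.21), fell as well. All 8 calls held without each library in turn.

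In the retinoic acid list, with 1 up and 4 down of 18 (median -0.07), the retinoic-acid-degrading enzyme Cyp26a1 fell from 64.2 and 57.9 to 9.56 and 7.64 (-2.58 ± 0.40, adjusted p = 0.00439). Stra6, the receptor through which cells take up retinol, fell from 56.8 and 75.9 to 6.08 and 21.6 (-2.29 ± 0.43, adjusted p = 0.00914). Both were low-count genes with clearly separate groups. The rest of the list was less firm: Aldh1a2, the 1 rise, was lost without any library other than KO replicate 2 (0.0503 to 0.254), 0 were up without either WT library, 2 were down without WT replicate 1, and 3 were up and 7 down without KO replicate 2.

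**Figure D5:**
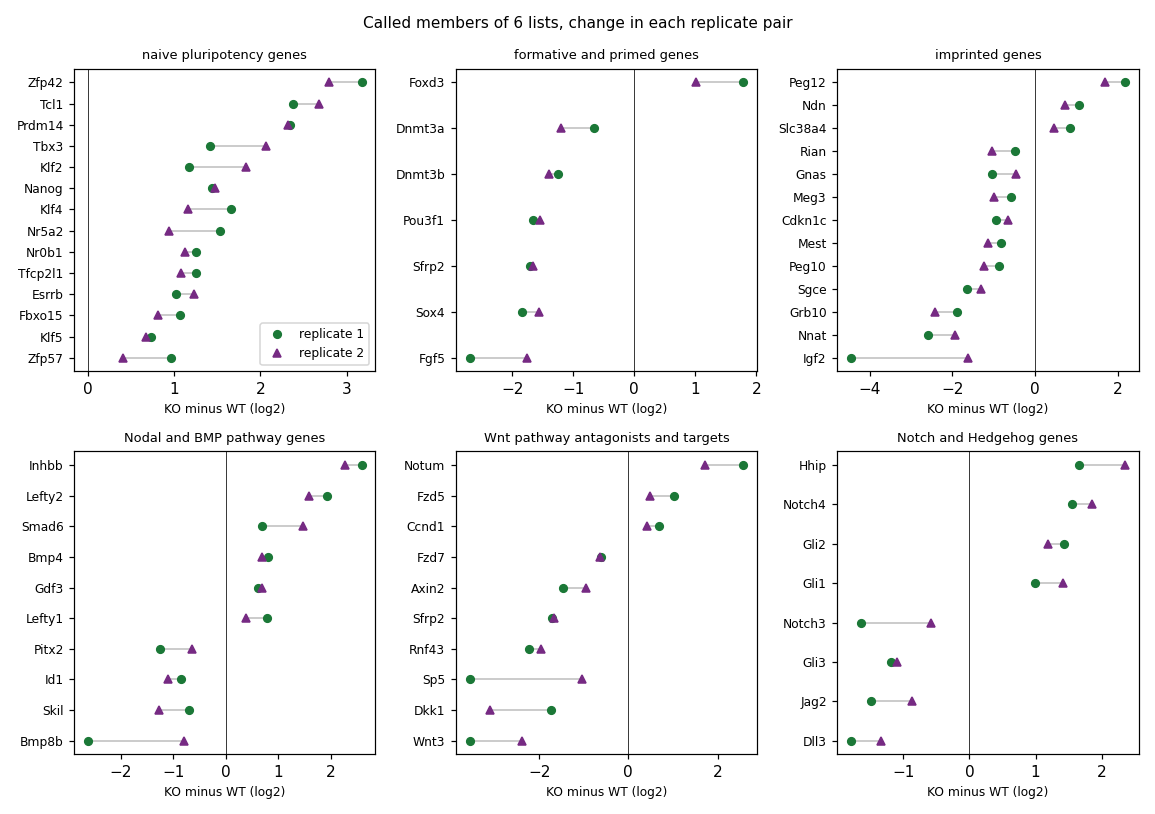
KO minus WT difference (log2 of the normalized count plus 2) of the called members of 6 lists, with replicate 1 as circles and replicate 2 as triangles. Naive genes lie right of 0, the other 5 lists hold both directions, and the pairs lie on the same side of 0 in every gene shown, as the test favours.

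Junction genes gave 2 up and 8 down of 22 (median -0.57), 15 down without KO replicate 2. Gap junction genes were among the calls in both directions. Gja1, a connexin and the main gap junction protein of stem cells, fell from 15105 and 6301 to 3990 and 1609 (-1.94 ± 0.13, adjusted p = 0.000195). The connexin gene Gjb5 rose from 696 and 948 to 1791 and 3167 (1.55 ± 0.19, adjusted p = 0.00165). The groups stood apart in both, with Gja1 lower and Gjb5 higher in KO. The tight junction claudin Cldn6 fell from 7439 and 7726 to 1544 and 4398 (-1.54 ± 0.31, adjusted p = 0.0129), and Cldn7 from 3244 and 3321 to 716 and 1800 (-1.53 ± 0.27, adjusted p = 0.00772). Cdh1 (E-cadherin), which joins stem cells within a colony, fell from 26644 and 19194 to 15365 and 13954 (-0.63 ± 0.13, adjusted p = 0.0144). For both claudins the step was larger in replicate 1 than in replicate 2.

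Genes of matrix contact moved in both directions. In the integrin list, with 2 up and 3 down of 22 (median -0.07), Itgb1, the beta-1 integrin chain shared by most matrix receptors, fell from 14956 and 5994 to 8477 and 3574 (-0.78 ± 0.13, adjusted p = 0.00504). The laminin-binding chain Itga3 fell from 8109 and 4279 to 2252 and 2921 (-1.20 ± 0.28, adjusted p = 0.0216), and Itga9 rose from 379 and 212 to 937 and 565 (1.35 ± 0.23, adjusted p = 0.00605). Without KO replicate 1 the list had 7 up and without KO replicate 2 it had 6 down. Of 13 basement membrane genes 1 rose and 5 fell (median -0.56), with the linker Nid1 up from 2768 and 1417 to 7105 and 2507 (1.09 ± 0.18, adjusted p = 0.00562). The collagen IV chain Col4a1 fell from 9542 and 4293 to 1524 and 2086 (-1.84 ± 0.30, adjusted p = 0.00553), but not without KO replicate 1 (0.155). Without WT replicate 1 or KO replicate 1 the list gave 2 up and 3 down, and without KO replicate 2 it gave 8 down.

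Axon guidance genes gave 3 up and 4 down of 29 (median -0.16). Sema6a, a transmembrane semaphorin, fell from 1947 and 1017 to 130 and 115 (-3.50 ± 0.30, adjusted p = 0.000374). Efnb2, the ligand ephrin-B2, fell from 905 and 499 to 186 and 141 (-2.04 ± 0.23, adjusted p = 0.00121), and the secreted semaphorin Sema3e from 2520 and 373 to 577 and 165 (-1.64 ± 0.27, adjusted p = 0.00524). KO libraries lay below both WT libraries in Sema6a and Efnb2, and the groups overlapped in Sema3e. The 3 rises were absent without WT replicate 2, where 0 were up, and 0 were up with TMM factors, while 6 were up without KO replicate 1 and 9 down without KO replicate 2.

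Transporter genes held isolated large changes. Slc40a1 (ferroportin), the cellular iron exporter, fell from 1403 and 817 to 234 and 298 (-2.01 ± 0.26, adjusted p = 0.00215). Slc39a8, which imports zinc and manganese, fell from 421 and 55.3 to 16.5 and 10.2 (-3.37 ± 0.56, adjusted p = 0.00554), and Slc30a3, a zinc transporter of vesicles, from 353 and 198 to 56.5 and 81.5 (-1.93 ± 0.39, adjusted p = 0.0121). All 3 had every KO library below every WT library. The metal list gave 1 up and 4 down of 19. Its rise, Slc30a1, was lost without either WT or C54Y library (0.0508 to 0.168), and 3 and 2 were up without KO replicates 1 and 2. Of amino acid and glucose transporters 2 rose and 3 fell of 19, 1 down without C54Y replicate 2 and 5 down without KO replicate 2. Slc7a3, an X-linked arginine and lysine transporter, rose from 6815 and 7245 to 15656 and 12600 (1.00 ± 0.16, adjusted p = 0.00446), and the glutamate transporter Slc1a3 fell from 1096 and 548 to 564 and 196 (-1.22 ± 0.21, adjusted p = 0.00634).

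Among D cyclins and their kinases and inhibitors, 4 of 13 rose and 4 fell. Ccnd3 (cyclin D3) rose from 5216 and 7992 to 11939 and 22670 (1.35 ± 0.14, adjusted p = 0.000788), with both KO libraries above both WT libraries. It was the only call of the list that held without each library in turn: without WT replicate 1 the list gave 1 up and 1 down, without WT replicate 2 it gave 2 up and 0 down, and without C54Y replicate 2 it gave 2 up. Cdkn1b (p27) fell from 1278 and 560 to 704 and 229 (-1.07 ± 0.20, adjusted p = 0.00865), but 0.0818 without WT replicate 2. Of 25 G1/S and replication genes 4 rose and 0 fell (median 0.31). Mcm5, a subunit of the replicative helicase, rose from 12026 and 22725 to 18985 and 32881 (0.60 ± 0.11, adjusted p = 0.00982), and was the only rise without WT replicate 1 and with TMM factors. The count was 2 without C54Y replicate 1, C54Y replicate 2 or WT replicate 2, 9 up and 1 down without KO replicate 1 and 12 up without KO replicate 2.

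Apoptosis regulators gave 1 up and 5 down of 21 (median -0.24). Bcl2, the founding anti-apoptotic protein, fell from 211 and 64.3 to 19.11 and 12.7 (-2.75 ± 0.38, adjusted p = 0.00255). Cradd, a death-domain adaptor that brings caspase-2 to the PIDDosome, fell from 300 and 623 to 43.4 and 103 (-2.65 ± 0.28, adjusted p = 0.000945), and Apaf1, the scaffold of the apoptosome, from 3326 and 1210 to 1969 and 578 (-0.91 ± 0.16, adjusted p = 0.00686). The falls thus included both a protector from and 2 mediators of cell death. Pawr (Par-4), a pro-apoptotic partner of THAP1, fell from 3238 and 1004 to 1505 and 621 (-0.90 ± 0.17, adjusted p = 0.00939), not without WT replicate 1 (0.0631). The 1 rise, Xiap, was lost without WT replicate 2 (0.164), and 3 were up without either KO library. Of 20 p53 targets 2 rose and 4 fell, and each of the 6 calls was lost without at least 1 library. The counts ran from 0 up without WT replicate 2, and 1 up without WT replicate 1 or either C54Y library, to 7 down without KO replicate 2, with 1 down without either WT library and 2 down without either C54Y library.

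Interferon and innate immune genes gave 3 up and 5 down of 20 (median -0.18). Oas1a, a sensor of double-stranded RNA, rose from 8.96 and 30.9 to 178 and 433 (3.88 ± 0.29, adjusted p = 0.000233), the largest change of the list. Ifitm2, which blocks viral entry, rose from 5619 and 11643 to 9983 and 21554 (0.86 ± 0.12, adjusted p = 0.00281), while Bst2 (tetherin) fell from 3672 and 6014 to 1728 and 3628 (-0.91 ± 0.16, adjusted p = 0.00651). Together with the falls of Tap1, Psmb8 and Psmb9 given above, the list split between rises and falls. The MHC class I gene H2-K1 fell from 1640 and 1677 to 1022 and 1058 (-0.67 ± 0.15, adjusted p = 0.0197), but 0.0978 and 0.154 without WT replicates 1 and 2.

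Stress pathways showed single changes. Xbp1, the transcription factor of the unfolded protein response, rose from 1744 and 2076 to 3578 and 4757 (1.12 ± 0.15, adjusted p = 0.00229). Among 19 endoplasmic reticulum chaperone genes 3 rose and 0 fell (median 0.25), and 1 rose without WT replicate 2, where Creld2 (0.0771) and Calr (0.329) lost their calls. Calr also lost it without C54Y replicate 1 (0.0783), C54Y replicate 2 (0.108) or KO replicate 2 (0.0888), and 5 were up and 1 down without KO replicate 1. The ATF4 list gave 1 up and 1 down of 18. Its fall, Atf3, went from 271 and 281 to 105 and 125 (-1.25 ± 0.25, adjusted p = 0.0123), with all KO values below the WT values. Its rise, Atf5, was lost without WT replicate 1 (0.0779) or WT replicate 2 (0.11), and 3 were down without KO replicate 1 and 4 up and 2 down without KO replicate 2.

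Metabolic genes changed in small steps. Glycolysis and hypoxia genes gave 7 up and 2 down of 23 (median 0.26), but 3 up and 2 down with TMM factors and 3 or 4 up with any WT or C54Y library left out. Pfkp, the platelet-type phosphofructokinase, rose from 2198 and 2925 to 6370 and 7202 (1.42 ± 0.16, adjusted p = 0.00102), both KO libraries above the WT libraries. The falls of Pdk1 (0.228 without WT replicate 2) and Eno2 (0.246 without WT replicate 1, 0.0516 without WT replicate 2) were lost, and 5 were down without KO replicate 2. One-carbon genes gave 4 up and 0 down of 16 (2 up without either replicate 2 library of WT or C54Y or without C54Y replicate 1). Tdh, the threonine dehydrogenase on which mouse stem cells depend, rose from 9169 and 11280 to 15165 and 22474 (0.86 ± 0.12, adjusted p = 0.00307), and the mitochondrial enzyme Shmt2 from 4983 and 9928 to 9402 and 16590 (0.83 ± 0.13, adjusted p = 0.00388). The cholesterol list gave 1 up and 1 down of 20 (median 0.06, or -0.03 with TMM factors). Its X-linked enzyme Nsdhl rose from 1254 and 1237 to 2550 and 2397 (0.99 ± 0.15, adjusted p = 0.00429), both KO libraries above the WT libraries. Without KO replicate 1 that list gave 6 up and 4 down.

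Among imprinted genes 3 rose and 10 fell of 24 (median -0.44), 6 down without WT replicate 2. Grb10, a growth-suppressing adaptor, fell from 7675 and 5985 to 2060 and 1112 (-2.16 ± 0.17, adjusted p = 0.000251), and Nnat (neuronatin) from 2620 and 3180 to 430 and 826 (-2.27 ± 0.24, adjusted p = 0.000914). Peg12 rose from 103 and 192 to 471 and 620 (1.93 ± 0.24, adjusted p = 0.00179), and all 3 genes had groups apart. Sgce, whose human counterpart is mutated in myoclonus dystonia, fell from 501 and 319 to 159 and 127 (-1.48 ± 0.23, adjusted p = 0.00419), and its divergent neighbour Peg10 from 25083 and 16885 to 13768 and 7174 (-1.05 ± 0.13, adjusted p = 0.00188). Igf2, the growth factor, fell from 3255 and 2355 to 147 and 764 (-3.04 ± 0.60, adjusted p = 0.0213), but was not called without C54Y replicate 1 (0.446), C54Y replicate 2 (0.408) or WT replicate 2 (0.0658).

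Genes of broad cell functions were called at shares near the background. Of 20 Polycomb genes 2 rose and 0 fell. Of these, Phf19 lost its call without WT replicate 2 (0.189) and Cbx2 without either WT (0.303, 0.143) or either C54Y library (0.0931, 0.102). The Polycomb list gave 1 up with any WT or C54Y library left out, 7 up without KO replicate 2 and 1 down without KO replicate 1. Of 27 proteasome genes 1 rose and 1 fell, with 0 up if either WT library was left out and 12 up without KO replicate 2. Its down count was 0 with any WT or C54Y library left out and 4 without KO replicate 1. Of 13 tested histone genes 1 rose and 0 fell. That rise, Hist1h4i, was lost without WT replicate 1 (0.262), WT replicate 2 (0.0516) or C54Y replicate 2 (0.0596), and 3 were up without KO replicate 2.

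Ribosomal protein genes gave 4 up and 0 down of 32, and 2 up with any WT or C54Y library left out. The 2 rises that held without each library are X-linked. Rpl10 went from 43612 and 112298 to 83816 and 196270 (0.87 ± 0.11, adjusted p = 0.00159), and Rps4x from 60872 and 108240 to 94471 and 162686 (0.61 ± 0.11, adjusted p = 0.00782). The WT and KO values of both overlap across replicates, and each pair rose. Ribosomal genes numbered 10 up and 3 down without KO replicate 1, 7 up without KO replicate 2 and 1 down without WT replicate 1. Oxidative phosphorylation genes gave 6 up and 0 down of 25 (median 0.21), 3 up and 1 down with TMM factors. Atp5g1, a subunit of the proton-carrying ring of ATP synthase, rose from 3203 and 12237 to 5789 and 19499 (0.76 ± 0.13, adjusted p = 0.00585). The list gave 2 up without WT replicate 2, 3 without C54Y replicate 2, 13 without KO replicate 2 and 1 down without KO replicate 1.

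Lysosomal genes gave 0 up and 3 down of 25 (median -0.21). Gusb, the enzyme beta-glucuronidase, fell from 1323 and 1835 to 291 and 442 (-2.11 ± 0.19, adjusted p = 0.00047), and Ctsl, the protease cathepsin L, from 15102 and 11461 to 8847 and 6722 (-0.77 ± 0.12, adjusted p = 0.00486). Both genes were lower in each KO library than in either WT library. Naglu, the remaining fall, was lost without WT replicate 1 (0.217), while 9 were down and 3 up without KO replicate 2 and 2 up without KO replicate 1.

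Of 20 double-strand break pathway genes 1 rose and 1 fell. The fall was Shld1, a shieldin subunit that limits the resection of DNA ends and is listed as 1110034G24Rik, from 235 and 494 to 31.3 and 90.4 (-2.63 ± 0.30, adjusted p = 0.00121). The rise, Brca2, was lost without WT replicate 1 (0.213), while 7 were up and 2 down without KO replicate 2 and 3 down without KO replicate 1. Among 12 tested THAP family genes and cofactors the calls were Thap1 and Pawr. Hcfc1, the X-linked cofactor of THAP1, stood at 10658 and 10189 in WT and at 15028 and 12912 in KO and was not called (0.42, adjusted p = 0.0572). Without KO replicates 1 and 2 that list gave 2 and 4 up, with 2 down without KO replicate 1 and 0 down without WT replicate 1. Of 21 inherited dystonia genes 3 rose and 4 fell (median 0.08, or -0.01 with TMM factors). Vps16, a subunit of the complexes that tether vesicles to lysosomes, fell from 2998 and 4428 to 1564 and 2030 (-1.03 ± 0.15, adjusted p = 0.00357). Tubb4a, a brain-enriched beta-tubulin, fell from 372 and 678 to 110 and 309 (-1.43 ± 0.27, adjusted p = 0.00981), and Spr, an enzyme of tetrahydrobiopterin synthesis, rose from 1510 and 4213 to 2758 and 7563 (0.86 ± 0.14, adjusted p = 0.0047). The KO libraries of Vps16 and Tubb4a lay below both WT libraries, and those of Spr overlapped with them. The list had 5 up without KO replicate 2, Prkra lost its call without WT replicate 2 (0.0819), and Th without WT replicate 2 (0.102) or KO replicate 2 (0.075).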

How the data were processed

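RNA sequencing of 6 mouse embryonic stem cell libraries (2 WT, 2 KO, 2 C54Y) was used. Per the submitters' processing notes, the tools were TopHat2 2.1.0, HTSeq and DESeq2, with CASAVA and Trimmomatic, and the build was mm9. The annotation, filters and strand setting are not given in the sources used here, so overlapping genes cannot be told apart. The deposited table holds 1 signal value per gene and library, a count divided by a size factor, and 100% of values were whole multiples of 1 read within 1e-06. A gene entered the test if 2 or more libraries had a value of 10 or more. Tests were made with limma 3.58.1 (trend, robust, R 4.3.3) on log2(value + 2) over all 6 libraries, with replicate number as a block and Benjamini-Hochberg adjustment at 0.05. Fold changes are on that scale, which understates low genes. The replicate numbers pair the libraries: deviations from group means correlated at 0.869 (WT and KO), 0.907 (WT and C54Y) and 0.895 (C54Y and KO).

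The comparison and the 44 gene lists were chosen with earlier results of these data known. Named genes were Thap1, Pou5f1, Sox2 and Nanog, the 14 largest called changes in each direction (mean of at least 100, groups not overlapping), up to 4 members with the smallest p of each list described, the 4 longest runs of called neighbours, and genes under 10 in 1 group and over 100 in the other; other named list members, and genes named for a lost call, were chosen after their values were seen. Of tested genes, 15221 (99.6%) matched RefSeq (GRCm38.p6), used for names, order along chromosomes and promoter sequences. Alternatives were edgeR 4.0.16 and DESeq2 1.42.0 on the recovered reads, other pseudocounts, filters and scaling, and each library left out. The test was also run on simulated libraries, whose outcome is not reported here. Those libraries were built with the same replicate effect in every genotype, so that run could not test the matching by replicate number. Some list members are counted but not reported by name here.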

Additional observations from a re-analysis of the deposited data

How the results depend on the processing

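Without the replicate block limma called 0 genes up, 0 down and 0 at least 2-fold, with 0 runs of 4 or more neighbours, against 1361, 1133, 1583 and 13 with it. Chosen after seeing the data, edgeR with no replicate block also called 0 throughout (1059 genes at an unadjusted p under 0.05), and DESeq2 with no replicate block called 235 genes (149 up, 86 down, 235 at least 2-fold, 1 run). With 1 library left out, calls ran from 1749 (without WT replicate 2) to 4861 (without KO replicate 2), rises from 833 to 2722, falls from 807 (without WT replicate 1) to 2139, calls of at least 2-fold from 1496 to 2279 and runs from 8 to 77. Calls in all were fewer without any WT or C54Y library and more without a KO library. Without a KO library the p-values hold no spread between KO libraries, so these fits are limited as checks of stability. A minimum value of 50 gave 8 runs, and 64 runs held at least 3 genes. The share of promoters of falling genes with the motif was 15.3% over 100 bases (16.1% of all tested promoters and 19.3% of those of rising genes) and, for motifs chosen after seeing the data, 20.9% (TNNGGGCA) and 1.54% (GTANGGGCA), against 40.5%. Of 289 called genes examined singly, none changed direction in these fits, and 73 and 82 lost their call without WT replicates 1 and 2, 34 and 41 without the C54Y libraries, 19 and 9 without the KO libraries and 31 with TMM factors. In limma the KO minus WT difference stays the same without the block, without a C54Y library or with both C54Y libraries left out. It also stays the same with no filter or with a minimum value of 50. The direction could therefore not change in those fits. At 2 libraries per genotype, differences that miss the threshold are not shown to be absent.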
